A study of Homo sapiens with 9 samples.

Results

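The genes described here build, branch, cut, bundle and pull on actin filaments, and they were measured in Hec50 cells given a miR-200c mimic, a scrambled negative control RNA or a mock transfection. Hec50 is an established human endometrial cancer cell line. A mimic is a short synthetic RNA that stands in for a mature miRNA. A gene belonged to the set if it stood on a list of 54 actin assembly, crosslinking and contractility genes. That list was chosen with earlier results of these data known. All probe sets annotated with a listed gene's symbol alone were taken, whatever their values. This gave 53 genes and 166 probe sets out of 19775 genes and 54613 probe sets, and FLNC, a muscle filamin, had no probe set under that symbol.

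The mimic cells and the scrambled control cells had each been given their RNA at 60 nM for 48 h before RNA was extracted, and the labels give no dose or time for the mock cells. Each of the 3 groups had 3 one-colour Affymetrix arrays. The comparisons asked how mimic cells differed from cells given a control RNA and from mock cells, and how the control RNA cells differed from mock cells. Whether the 3 replicates of a group were separate cultures is not stated in the labels. The p-values therefore measure the spread between these arrays alone, and that spread may be technical. Precision is limited by having 3 arrays a group.

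Values are on the log2 scale, and 0 is the median of the 9 arrays for that probe set. They thus give differences between arrays and hold no levels. A change is a difference of group means, given with its standard error. It passed where its p, adjusted by the Benjamini-Hochberg method in a limma fit across all probe sets or all genes, was under 0.05. Of the member probe sets, 95 were in the level class of 8 or more on the log2 scale, 58 were from 4 to 8 and 13 were below 4. At least 1 probe set was in the top class for 46 of the 53 genes. The standard error of a group difference ranged from 0.05 to 0.35 over the member probe sets, with a median of 0.06.

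Actin filaments grow from monomers that profilin and thymosins hold ready. The Arp2/3 complex, switched on by WASP family proteins, starts branches, formins and Ena/VASP proteins lengthen filaments, and cofilins sever old ones until LIM kinases switch them off. Crosslinkers, tropomyosins and myosin II turn filaments into contractile bundles tied to the membrane at adhesion sites. In epithelial tumour cells this machinery shapes cell junctions and drives migration, and miR-200c is known for holding cells in an epithelial state.

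The 2 mature RNAs that the miR-200c hairpin gives are shown because the labels do not name the arm of the mimic. Capitals mark the seed, bases 2 to 8, and the sequences are RefSeq's on GRCh38.p14.
hsa-miR-200c-3p: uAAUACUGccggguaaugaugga
hsa-miR-200c-5p: cGUCUUACccagcaguguuugg
The 3p arm has 23 bases and lies at chr12:6963742-6963764 on the plus strand. Its seed is shared with hsa-miR-200b-3p and hsa-miR-429. The 5p arm has 22 bases and lies at chr12:6963703-6963724 on the same strand, and hsa-miR-550a-3p has its seed.

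The cells carried epithelial markers. EPCAM, KRT8 and KRT18 were in the top level class, KRT19 and CDH1 reached the class from 4 to 8, and of the endometrial lineage markers PAX8 was in the top class, ESR1 from 4 to 8 and SOX17 and PGR below 4. None of the 4 endothelial or 4 measured leukocyte markers reached the top class, but 2 of each list were from 4 to 8. The class from 4 to 8 therefore does not set KRT19 and CDH1 apart from markers of other cell types. Of 5 fibroblast markers COL1A1 and COL1A2 were in the top class and 2 were from 4 to 8. The summed centred level of the 5 epithelial markers, most of it from CDH1, was 4.77 to 5.66 in the mimic arrays, -0.52 to 0.00 in the scrambled control arrays and -0.45 to -0.31 in the mock arrays, and its part in the results below was not tested. By marker the mimic means were 3.26 for CDH1 at its probe set of the higher level class, 1.07 for EPCAM, 0.43 for KRT18 and 0.27 for KRT8, and the means of the KRT19 probe sets were 0.00 and 0.04. The sum of the 4 endometrial lineage markers was -0.42 to -0.15 in the mimic arrays, -0.11 to 0.23 in the scrambled control arrays and 0.16 to 0.28 in the mock arrays. The sums of the fibroblast and endothelial lists overlapped between all groups. Within the fibroblast list, however, 3 of 5 COL1A1 probe sets were lower than mock with either RNA, by -0.38 to -0.73 with the mimic and by -0.46 to -0.57 with the scrambled control, and their part in the falls against mock was not tested. The sum of the leukocyte list was -0.11 to 0.34 in the mimic arrays, 0.07 to 0.27 in the scrambled control arrays and -0.39 to -0.11 in the mock arrays.

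Relative to the scrambled control, 9 of the 53 genes fell with the mimic and 4 rose. The genes that fell most were ARPC1A of the Arp2/3 complex, the cofilin CFL2 and the filament-to-membrane linker MARCKS, each by 0.69 to 0.92 on the log2 scale. PAK2, WASF3, ZYX, ENAH, ROCK2 and TPM2 fell by 0.18 to 0.38, and ARPC5, WASL, LIMK2 and SSH1 rose by 0.19 to 0.35. The share that fell, 17.0%, stands beside 7.08% of all genes, and the share that rose, 7.55%, beside 7.65%. Because the list was chosen with earlier results known, these shares and those below are not those of a set chosen blind to the data. By probe set, 19 of 166 fell (11.4%, against 4.15% of all probe sets) and 7 rose (4.22%, against 4.52%), and 8 of the 19 belonged to MARCKS and CFL2. Since 46 of the 53 genes were in the top level class, the background of that class is also given, and there 8 of 46 members fell (17.4%, against 12.1% of all genes in the class) and 3 rose (6.52%, against 11.2%). Without mimic replicate 3 the count of genes that fell was 5, and without scrambled control replicate 1 or 3 or mimic replicate 1 or 3 the count of probe sets that rose was 3. Over all genes the count that fell was 1400 with all arrays and 1063 without mimic replicate 3. Over all probe sets the count that rose was 2466 with all arrays and 1761 to 1951 without 1 of those replicates. In bulk RNA, fewer cells of a kind and less RNA per cell cannot be told apart.

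MARCKS binds and bundles filaments under the plasma membrane, and all 5 of its probe sets fell against both controls. Probe set 225897_at read -0.96, -0.96 and -0.97 in the mimic arrays, 0.15, 0.20 and 0.06 in the scrambled control arrays and -0.01, 0.04 and 0.00 in the mock arrays. The mimic arrays lay nearly 1 log2 unit below both controls, whose difference of 0.13 did not pass (adjusted p = 0.214, limma). The change was -1.10 ± 0.05 against the scrambled control, a 2.14-fold fall (adjusted p = 2.27e-06, limma), and -0.97 ± 0.05 against mock (1.96-fold, adjusted p = 3.65e-06). Probe set 201670_s_at read -0.65, -0.58 and -0.83 with the mimic, 0.00, 0.12 and 0.00 with the scrambled control and 0.07, 0.21 and 0.11 in mock cells, again with no overlap between the mimic and either control. It fell by 0.72 against the scrambled control and by 0.81 against mock (adjusted p = 0.000157 and 7.27e-05, limma). The other 3 probe sets fell by 0.37 to 0.71 against the scrambled control and by 0.37 to 0.63 against mock.

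ARPC1A is 1 of the 2 interchangeable forms of an Arp2/3 subunit, and its only probe set, 200950_at, fell against both controls. It read -0.83, -0.90 and -0.99 in the mimic arrays, -0.04, 0.07 and 0.01 in the scrambled control arrays and 0.03, 0.00 and 0.09 in the mock arrays. Every mimic array lay below every control array, by -0.92 ± 0.06 on average against the scrambled control (1.89-fold, adjusted p = 9.71e-06, limma) and by -0.94 ± 0.06 against mock (1.92-fold, adjusted p = 8.22e-06). ARPC1B, the alternative form, read 0.00, -0.18 and -0.07 with the mimic, -0.03, 0.00 and -0.06 with the scrambled control and 0.05, 0.04 and 0.16 in mock cells. The mimic and scrambled control ranges of ARPC1B overlapped, and its change of -0.05 had a 95% interval of -0.19 to 0.08. The interval against mock ran from -0.30 to -0.03, with an adjusted p of 0.116 (limma). Of the other subunits, ARPC5 rose by 0.19 ± 0.04 against the scrambled control (adjusted p = 0.0115, limma, gene fit), and ARPC2, ARPC3 and ACTR3 lay between -0.11 and 0.03 without passing. One of the 5 ACTR3 probe sets, 228603_at, rose by 0.31 (adjusted p = 0.0113, limma).

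CFL2, the cofilin best known from muscle, fell in all 3 of its probe sets. Probe set 233496_s_at read -0.84, -0.82 and -0.95 in the mimic arrays, -0.03, 0.07 and 0.07 in the scrambled control arrays and 0.00, 0.06 and 0.11 in the mock arrays. Both control groups lay well above the mimic and overlapped each other. The fall was -0.91 ± 0.06 against the scrambled control (1.88-fold, adjusted p = 9.33e-06, limma) and -0.93 ± 0.06 against mock (1.90-fold, adjusted p = 8.34e-06). Probe set 224663_s_at read -0.76, -0.83 and -0.84 with the mimic, 0.00, -0.03 and 0.06 with the scrambled control and 0.07, 0.10 and 0.16 in mock cells. It repeated the separation, with changes of -0.82 and -0.92 (adjusted p = 9.71e-06 and 5.23e-06, limma), and 224352_s_at fell by 0.64 and 0.76.

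The other members of the cofilin family did not pass. CFL1, the main non-muscle cofilin, read 0.02, 0.00 and -0.08 with the mimic, -0.09, 0.00 and -0.03 with the scrambled control and 0.07, 0.10 and 0.11 in mock cells at 1555730_a_at, and its difference from the scrambled control was 0.02 (95% interval -0.10 to 0.14). DSTN, or destrin, read 0.09, 0.05 and 0.06 with the mimic, -0.04, 0.02 and 0.00 with the scrambled control and -0.05, -0.06 and -0.06 in mock cells at 201021_s_at, and its difference was 0.08 (95% interval -0.03 to 0.18). The CFL1 arrays overlapped between both RNAs and the DSTN arrays were slightly higher with the mimic. Neither interval reaches the size of the CFL2 change, but the differences between the paralogs were not tested.

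Of the kinases that inactivate cofilin, LIMK2 rose against the scrambled control, while LIMK1 fell at 1 of its 3 probe sets and did not pass in the gene fit (-0.14 ± 0.06, adjusted p = 0.18, limma). LIMK2 probe set 202193_at read 0.38, 0.18 and 0.47 in the mimic arrays, -0.04, -0.11 and 0.00 in the scrambled control arrays and -0.13, -0.14 and 0.00 in the mock arrays. The mimic arrays were highest, without overlap, by 0.39 ± 0.08 against the scrambled control (1.31-fold, adjusted p = 0.0102, limma) and 0.43 against mock (adjusted p = 0.00513). LIMK2 probe set 210582_s_at read 0.22, 0.14 and 0.18 with the mimic, 0.00, -0.26 and -0.20 with the scrambled control and 0.05, 0.00 and -0.10 in mock cells. It rose by 0.34 against the scrambled control (adjusted p = 0.0157, limma), a call lost in 4 of 15 alternatives (adjusted p 0.00586 to 0.0607), and its 0.20 against mock did not pass (adjusted p = 0.111). LIMK1 probe set 204357_s_at read -0.06, -0.22 and -0.19 with the mimic, 0.09, 0.26 and 0.00 with the scrambled control and 0.00, 0.00 and 0.07 in mock cells, a fall of 0.28 against the scrambled control (adjusted p = 0.0448, limma) and a value of -0.18 against mock that did not pass (adjusted p = 0.152).

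WASP family proteins switch on Arp2/3, and WASF3 and WASL changed in opposite directions. WASF3, a WAVE protein, read -0.29, -0.29 and -0.32 in the mimic arrays, 0.19, 0.05 and 0.00 in the scrambled control arrays and 0.04, 0.02 and -0.01 in the mock arrays at probe set 204042_at. It was below both controls without overlap, by -0.38 ± 0.06 (1.30-fold, adjusted p = 0.00235, limma) and -0.31 (adjusted p = 0.00574). WASL, or N-WASP, read 0.21, 0.14 and 0.24 with the mimic, 0.01, -0.05 and 0.00 with the scrambled control and -0.12, -0.15 and -0.11 in mock cells at 224813_at. It was above both controls, by 0.21 ± 0.05 (adjusted p = 0.0274, limma) and 0.33 (1.25-fold, adjusted p = 0.00209). Of the 4 WASL probe sets, 1 passed against the scrambled control, where changes ran from 0.01 to 0.28. Against mock 2 passed, with changes from 0.03 to 0.37. WASL was the sole member raised against both controls in the gene fit, where its array values were the same as at 224813_at. WASF2, another WAVE protein, read 0.00, -0.33 and -0.10 with the mimic, -0.05, 0.11 and -0.22 with the scrambled control and 0.12, 0.03 and 0.10 in mock cells at 221725_at. Its arrays were widely spread, and its differences of -0.09 from the scrambled control and -0.23 from mock did not pass (adjusted p = 0.687 and 0.181, limma).

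ENAH, an Ena/VASP protein that protects growing filament ends from capping, fell at 1 of its 6 probe sets. At 228310_at it read -0.26, -0.45 and -0.34 in the mimic arrays, -0.02, 0.01 and 0.02 in the scrambled control arrays and 0.00, 0.02 and 0.05 in the mock arrays. The mimic arrays were lowest and overlapped neither control, with a change of -0.36 ± 0.06 (adjusted p = 0.00307, limma) and of -0.37 against mock (adjusted p = 0.00205). A lower-class ENAH probe set, 1553672_at, rose by 0.35 against mock (adjusted p = 0.0313, limma). The formins DIAPH1 and DIAPH2 and the protein VASP lay between 0.02 and 0.11 against the scrambled control without passing, and EVL, the third Ena/VASP protein, lay at -0.16 without passing and fell by 0.24 against mock (adjusted p = 0.0146, limma, gene fit).

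FSCN1, or fascin, packs filaments into the tight bundles of cell protrusions. At 201564_s_at it read -0.36, -0.46 and -0.43 with the mimic, 0.00, 0.07 and 0.00 with the scrambled control and 0.32, 0.33 and 0.27 in mock cells. The 3 groups formed separate steps, mimic lowest and mock highest. The changes were -0.44 ± 0.05 against the scrambled control (1.35-fold, adjusted p = 0.000502, limma), -0.72 against mock (1.65-fold, adjusted p = 2.15e-05) and -0.29 between the scrambled control and mock (adjusted p = 0.0169). The second FSCN1 probe set, 210933_s_at, had a change of 0.17 against the scrambled control that did not pass (adjusted p = 0.846, limma), and the mean of both probe sets, -0.13 ± 0.17, did not pass in the gene fit.

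PAK2, a kinase switched on by RAC1 and CDC42, read -0.28, -0.46 and -0.38 in the mimic arrays, 0.00, -0.09 and 0.02 in the scrambled control arrays and 0.13, 0.16 and 0.24 in the mock arrays at 208877_at. It fell by 0.35 against the scrambled control (adjusted p = 0.00583, limma) and by 0.55 against mock (adjusted p = 0.000327). The mimic arrays overlapped neither control. Tropomyosins, which coat filaments and set which proteins bind them, gave some calls that depended on single arrays against the scrambled control. TPM2 probe set 212654_at read -0.15, -0.67 and -0.43 with the mimic, 0.00, 0.14 and -0.03 with the scrambled control and 0.24, 0.09 and 0.00 in mock cells. The mimic arrays were lowest but widely spread, and the change of -0.45 ± 0.12 (adjusted p = 0.0352, limma) lost its call in 7 of 15 alternatives, among them leaving out any 1 scrambled control array (adjusted p up to 0.124). The gene fit leaves this probe set out because of its lower level class. There TPM2 fell by 0.21 against the scrambled control and by 0.42 against mock (adjusted p = 0.0336 and 0.000556, limma). It was also 0.21 lower with the scrambled control than in mock cells (adjusted p = 0.0489, limma). TPM1 disagreed with itself, since 206117_at fell by 0.33 (adjusted p = 0.0242, lost in 5 of 15 alternatives) and 1558532_at rose by 0.31 (adjusted p = 0.0347, limma). The TPM1 probe set 206117_at read -0.13, -0.10 and -0.40 in the mimic arrays, 0.19, 0.05 and 0.13 in the scrambled control arrays and 0.00 in each mock array.

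**Figure D1:**
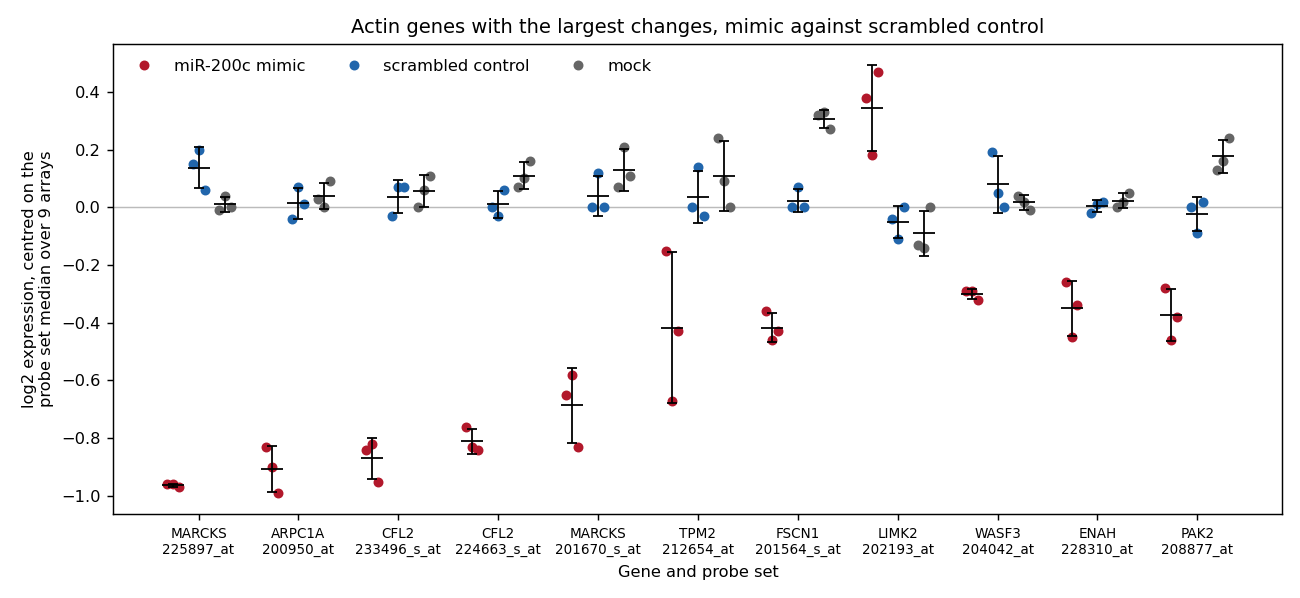
Points are single arrays, 3 per group, and bars are means with SD, for the 11 member probe sets with the largest called changes against the scrambled control. The vertical axis is log2 expression with each probe set's median at 0, and the mimic points of MARCKS 225897_at, ARPC1A and CFL2 sit between -0.76 and -0.99, below all control points.

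**Figure D2:**
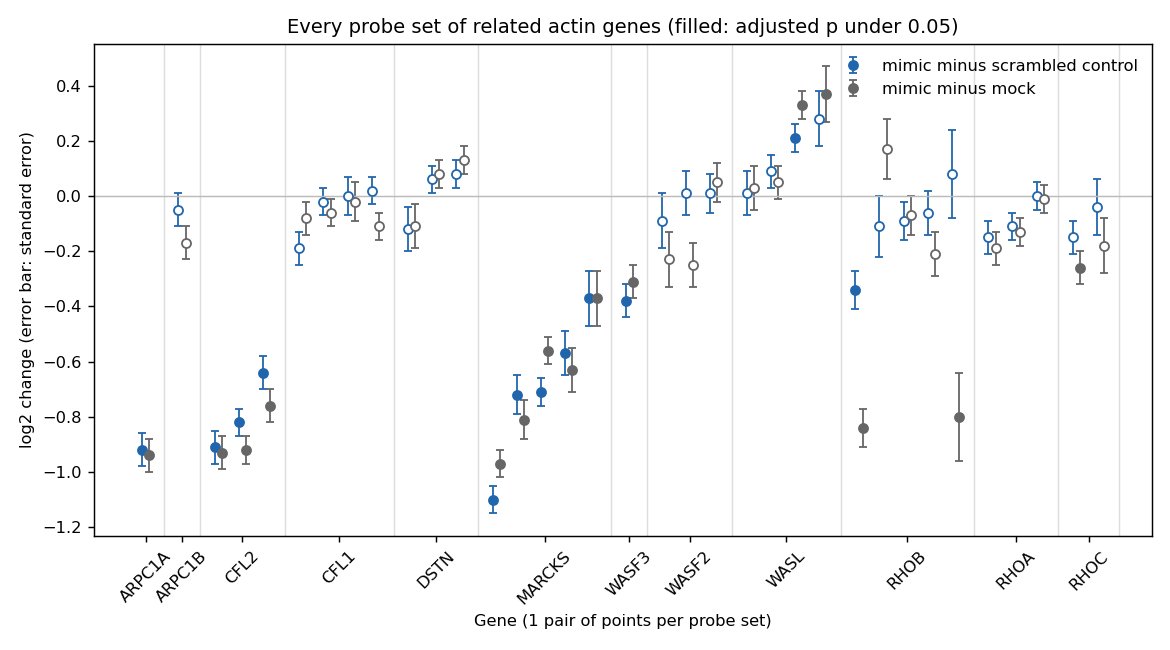
Each pair of points is 1 probe set, with its log2 change against the scrambled control and against mock and the standard error as a bar, and filled points passed an adjusted p under 0.05. ARPC1A, CFL2 and MARCKS lie well below 0 while the called probe sets of WASL lie above it, and the RHOB probe sets are farther from mock than from the scrambled control.

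Relative to mock, 22 of the 53 genes fell with the mimic and 1, WASL, rose. This is 41.5% lower, against 10.3% of all genes, and 1.89% higher, against 8.4%. Among genes in the top level class 18 of 46 members fell (39.1%, against 17.4% of all genes in the class). By probe set 38 of 166 fell (22.9%, against 6.98%) and 6 rose (3.61%, against 5.07%), and those that rose were 3 without mock replicate 2, scrambled control replicate 1 or mimic replicate 1 or 3. Without scrambled control replicate 2 the genes that rose were 2. The median change over the 53 genes was -0.15, against 0.01 over all genes, while against the scrambled control it was -0.04, against -0.01 over all genes. The comparisons against mock and against the scrambled control share the mimic arrays, so their lists are not independent. In the gene fit 8 genes fell in both, ARPC1A, PAK2, WASF3, ZYX, CFL2, MARCKS, ENAH and TPM2. The share of all genes that fell in both is not given here, so this count only names the genes.

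The 14 genes that fell against mock in the gene fit without passing against the scrambled control covered most roles. Passing in only 1 of these comparisons does not show that the changes differ, and that difference was not tested. FSCN1, RHOB and LIMK1 each had 1 probe set called lower against the scrambled control. The 14 were the GTPases RHOA, RHOB and RHOC, the adhesion protein TLN1, the kinase LIMK1, the crosslinkers ACTN1, ACTN4 and FSCN1, the filament elongator EVL, the profilin PFN1, the myosin heavy chain MYH9, the myosin kinase MYLK, the capping protein CAPG and the tropomyosin TPM4. Their gene-level changes against mock ran from -0.16 for RHOA to -0.65 for FSCN1.

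The scrambled control itself differed from mock. Of the 53 genes 9 were lower (17.0%, against 5.23% of all genes), namely RHOB, TLN1, ZYX, SSH1, ACTN1, ACTN4, PFN1, CAPG and TPM2, and 0 were higher by limma (against 2.8%), with 3 higher at an unadjusted p under 0.05. Among genes in the top level class 8 of 46 members were lower (17.4%, against 9.42% of all genes in the class). By probe set 16 of 166 were lower (9.64%, against 2.84%) and 2 higher (1.2%, against 1.23%). Without mock replicate 1, or without mock replicate 2, 4 genes and 10 probe sets were lower, and leaving out any array but mock replicate 3 left 0 or 1 probe sets higher. The counts over all features dropped too. Of all 19775 genes 1035 were lower with all arrays, and 553 and 578 without mock replicate 1 or 2. Of all 54613 probe sets 1553 were lower with all arrays, and 688 and 577 without these replicates. The comparisons of the mimic and of the scrambled control with mock share the 3 mock arrays, so a gene found in both lists is not independent evidence. The gene-level changes from mock, with the mimic and then with the scrambled control, were -0.77 and -0.58 for ZYX, -0.49 and -0.37 for RHOB, -0.38 and -0.32 for ACTN1 and -0.09 and -0.40 for SSH1. The 3' minus 5' difference of the array's ACTB control probe sets averaged 0.02 ± 0.08 in the mimic arrays, 0.10 ± 0.04 in the scrambled control arrays and -0.18 ± 0.03 in the mock arrays (SD, n = 3 each), so it differed between transfected and mock cells too, and its part in these results was not tested. The same difference of the GAPDH control was -0.02 ± 0.03, 0.01 ± 0.02 and 0.03 ± 0.04 in the mimic, scrambled control and mock arrays.

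ZYX, or zyxin, gathers actin-building proteins at adhesion sites under tension. Probe set 200808_s_at read -0.07, -0.22 and -0.23 in the mimic arrays, 0.00, 0.00 and 0.01 in the scrambled control arrays and 0.61, 0.64 and 0.54 in the mock arrays. Both transfected groups lay far below mock, by -0.77 ± 0.06 with the mimic (1.71-fold, adjusted p = 2.71e-05, limma) and -0.59 ± 0.06 with the scrambled control (1.51-fold, adjusted p = 0.00131). Probe set 215706_x_at read -0.10, -0.27 and -0.18 with the mimic, 0.00, 0.07 and -0.03 with the scrambled control and 0.64, 0.53 and 0.58 in mock cells, and it fell by 0.77 and 0.57 against mock. Between the 2 RNAs each probe set alone missed the threshold (-0.18 and -0.20, adjusted p = 0.103 and 0.076, limma), and their mean passed in the gene fit at -0.19 ± 0.05 (adjusted p = 0.0301, limma).

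TLN1, or talin, links integrins to actin. At 203254_s_at it read -0.24, -0.10 and -0.01 in the mimic arrays, 0.00, 0.15 and -0.25 in the scrambled control arrays and 0.73, 0.77 and 0.71 in the mock arrays. The mimic and scrambled control ranges overlapped, and both lay below mock, by -0.86 ± 0.10 (1.81-fold, adjusted p = 0.000298, limma) and -0.77 (1.71-fold, adjusted p = 0.00316). The other TLN1 probe sets did not pass, and the called one was in the level class from 4 to 8. Against mock the 3 probe sets ran from -0.86 to -0.03 with the mimic and from -0.77 to 0.06 with the scrambled control. The gene fit gave -0.31 and -0.26 (adjusted p = 0.00417 and 0.0258, limma). PXN, or paxillin, an adhesion scaffold, read 0.00, 0.01 and -0.40 with the mimic, -0.40, -1.01 and -0.11 with the scrambled control and 0.61, 0.73 and 0.66 in mock cells at 211823_s_at. The scrambled control arrays were low but widely spread, and the change against mock was -1.17 ± 0.19 (2.26-fold, adjusted p = 0.0104, limma), with -0.79 for the mimic (adjusted p = 0.0219). The top-class PXN probe set, 201087_at, had -0.17 between the scrambled control and mock and did not pass. VCL, or vinculin, and PTK2, the focal adhesion kinase, did not pass in the gene fit of any comparison.

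RHOB, a stress-inducible small GTPase, had a called probe set in all 3 comparisons. At 212099_at it read -0.40, -0.27 and -0.48 in the mimic arrays, 0.00, -0.12 and 0.00 in the scrambled control arrays and 0.41, 0.42 and 0.55 in the mock arrays. The groups formed 3 steps without overlap, -0.84 below mock with the mimic (1.79-fold, adjusted p = 4.6e-05, limma) and -0.50 ± 0.07 below mock with the scrambled control (1.41-fold, adjusted p = 0.00551). The step between the mimic and the scrambled control, -0.34 ± 0.07, had an adjusted p of 0.012 (limma), and of 0.0508 without scrambled control replicate 1. Probe set 1553962_s_at read -0.03, -0.01 and -0.23 with the mimic, 0.00, -0.63 and 0.11 with the scrambled control and 0.63, 0.67 and 0.84 in mock cells. There the mimic and scrambled control arrays overlapped (0.08, adjusted p = 0.832, limma), and both were below mock, by -0.80 with the mimic (adjusted p = 0.00834) and -0.88 with the scrambled control (adjusted p = 0.0158). The call of the scrambled control against mock was lost without mock replicate 2 or mock replicate 3 (adjusted p = 0.0534 and 0.0529, limma), and both calls were lost without mock replicate 3 and mimic replicate 1 together (adjusted p = 0.0611 for the mimic and 0.0685 for the scrambled control).

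RHOA and RHOC, the close relatives of RHOB, drive stress fibres and contraction. RHOA probe set 1555814_a_at read -0.05, -0.10 and -0.23 in the mimic arrays, 0.00, 0.00 and 0.06 in the scrambled control arrays and 0.01, 0.07 and 0.11 in the mock arrays. The mimic arrays were lowest, and the changes of -0.15 and -0.19, with 95% intervals of -0.28 to -0.02 and -0.32 to -0.06, did not pass (adjusted p = 0.176 and 0.0687, limma), while the mean of the RHOA probe sets fell by 0.16 against mock in the gene fit (adjusted p = 0.0453). RHOC probe set 200885_at read -0.04, -0.21 and -0.23 with the mimic, -0.04, 0.00 and 0.03 with the scrambled control and 0.05, 0.11 and 0.13 in mock cells. Mock was the highest group, and RHOC fell by 0.26 against it (adjusted p = 0.0208, limma) and had -0.15 against the scrambled control (adjusted p = 0.174).

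For CDC42, which drives filopodia, 1 of 5 probe sets passed, 214230_at, with 0.07, 0.00 and 0.00 in the mimic arrays, 0.11, 0.01 and 0.26 in the scrambled control arrays and -0.64, -0.29 and -0.32 in the mock arrays. It was the mock arrays that were low, so that CDC42 was 0.54 ± 0.10 higher with the scrambled control (adjusted p = 0.0149, limma, and 0.0551 without scrambled control replicate 3) and 0.44 higher with the mimic (adjusted p = 0.0136). RAC1 lay at 0.00 against the scrambled control and at -0.12 against mock, and passed in neither gene fit.

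SSH1, or slingshot, removes the inhibitory phosphate from cofilin. At 221752_at it read 0.07, -0.07 and 0.00 in the mimic arrays, -0.20, -0.12 and -0.51 in the scrambled control arrays and 0.35, 0.31 and 0.55 in the mock arrays. The scrambled control arrays were the lowest group, -0.68 ± 0.10 below mock (1.60-fold, adjusted p = 0.00688, limma), and the mimic was 0.41 below mock on the log2 scale (-0.41, adjusted p = 0.0257). Top-class probe set 221753_at read 0.00, -0.10 and 0.02 with the mimic, -0.33, -0.23 and -0.45 with the scrambled control and 0.13, 0.01 and 0.05 in mock cells. There the mimic was above the scrambled control (0.31, adjusted p = 0.0178, limma) and its difference from mock was -0.09 (adjusted p = 0.481), so the rise of SSH1 against the scrambled control goes with a scrambled control group that was itself below mock (-0.40, adjusted p = 0.0127).

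Of the crosslinkers and filament-end proteins, ACTN1, ACTN4 and CAPG were lower than mock with the mimic and with the scrambled control in the gene fit, in comparisons that share the mock arrays. ACTN1, the non-muscle alpha-actinin of stress fibres, read 0.07, -0.05 and -0.17 in the mimic arrays, -0.01, 0.00 and -0.11 in the scrambled control arrays and 0.40, 0.39 and 0.34 in the mock arrays at 208637_x_at. The transfected groups overlapped each other and lay below mock by -0.43 (1.35-fold, adjusted p = 0.00225, limma) and -0.42 ± 0.07 (1.34-fold, adjusted p = 0.00966). CAPG, which caps filament ends, read -0.03, -0.12 and -0.12 with the mimic, 0.00, 0.00 and -0.03 with the scrambled control and 0.35, 0.29 and 0.34 in mock cells at 201850_at. It was lower than mock by -0.41 (1.33-fold, adjusted p = 0.000513, limma) and -0.34 ± 0.05 (1.26-fold, adjusted p = 0.00741). PFN1, the profilin that feeds monomers to growing ends, was lower by -0.23 with the mimic and -0.22 with the scrambled control (adjusted p = 0.0177 and 0.0437, limma). GSN, or gelsolin, which severs and caps filaments, and the capping protein subunits CAPZA1 and CAPZB passed in no gene fit, and neither did VIL1, or villin. One CAPZB probe set, 201950_x_at, fell by 0.25 against mock (adjusted p = 0.0182, limma). The monomer binders PFN2 and TMSB10 lay between -0.06 and 0.13 and passed in no comparison. CTTN, or cortactin, which steadies branches, lay between -0.04 and 0.01 in the gene fit of the 3 comparisons and passed in none.

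Of the 6 genes of myosin II and its kinases, 1 fell against the scrambled control (16.7%, against 7.08% of all genes) and 2 against mock (33.3%, against 10.3%), and in a group of 6 such shares rest on 1 or 2 genes. MYLK, the kinase that activates myosin II, was lower than mock at 1 of its 5 probe sets, 202555_s_at. The changes there were -0.28 with the mimic and -0.24 with the scrambled control (adjusted p = 0.0104 and 0.0436, limma). MYH9, the main non-muscle myosin II heavy chain, fell by 0.21 against mock in the gene fit (adjusted p = 0.0393, limma). ROCK2, a kinase that promotes contraction, fell by 0.20 against the scrambled control in the gene fit (adjusted p = 0.0197, limma), and neither of its 2 probe sets passed on its own. MYH10, MYL9 and ROCK1 passed in no gene fit, and their changes lay between -0.02 and 0.17. TPM4, a tropomyosin of stress fibres, read -0.18 in each mimic array, -0.13, 0.11 and 0.00 in the scrambled control arrays and 0.10, 0.07 and 0.12 in the mock arrays at 1567107_s_at. The mimic arrays were lowest, and TPM4 was lower than mock with the mimic at 3 of 5 probe sets, by -0.28 to -0.47 (adjusted p = 0.00969 to 0.0172, limma).

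**Figure D3:**
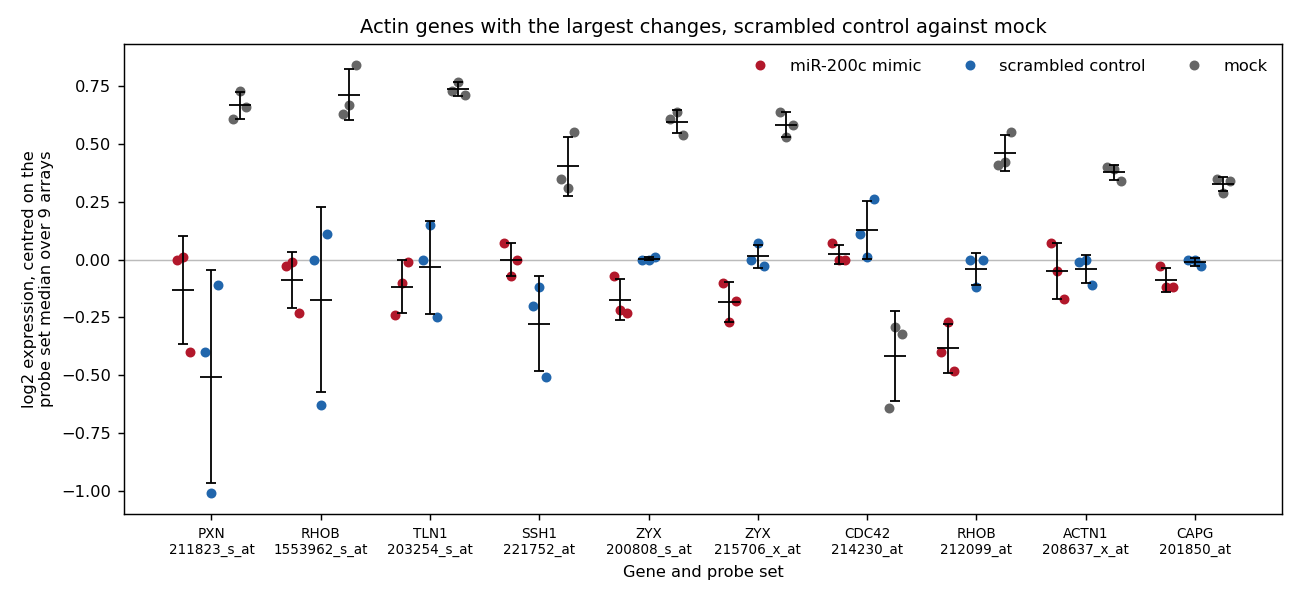
Points are single arrays, 3 per group, with mean and SD bars, for the 8 member probe sets with the largest called changes between the scrambled control and mock and for ACTN1 and CAPG. The vertical axis is centred log2 expression, and the mock arrays are highest in every panel position but CDC42, where they are lowest (-0.64 to -0.29).

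**Figure D4:**
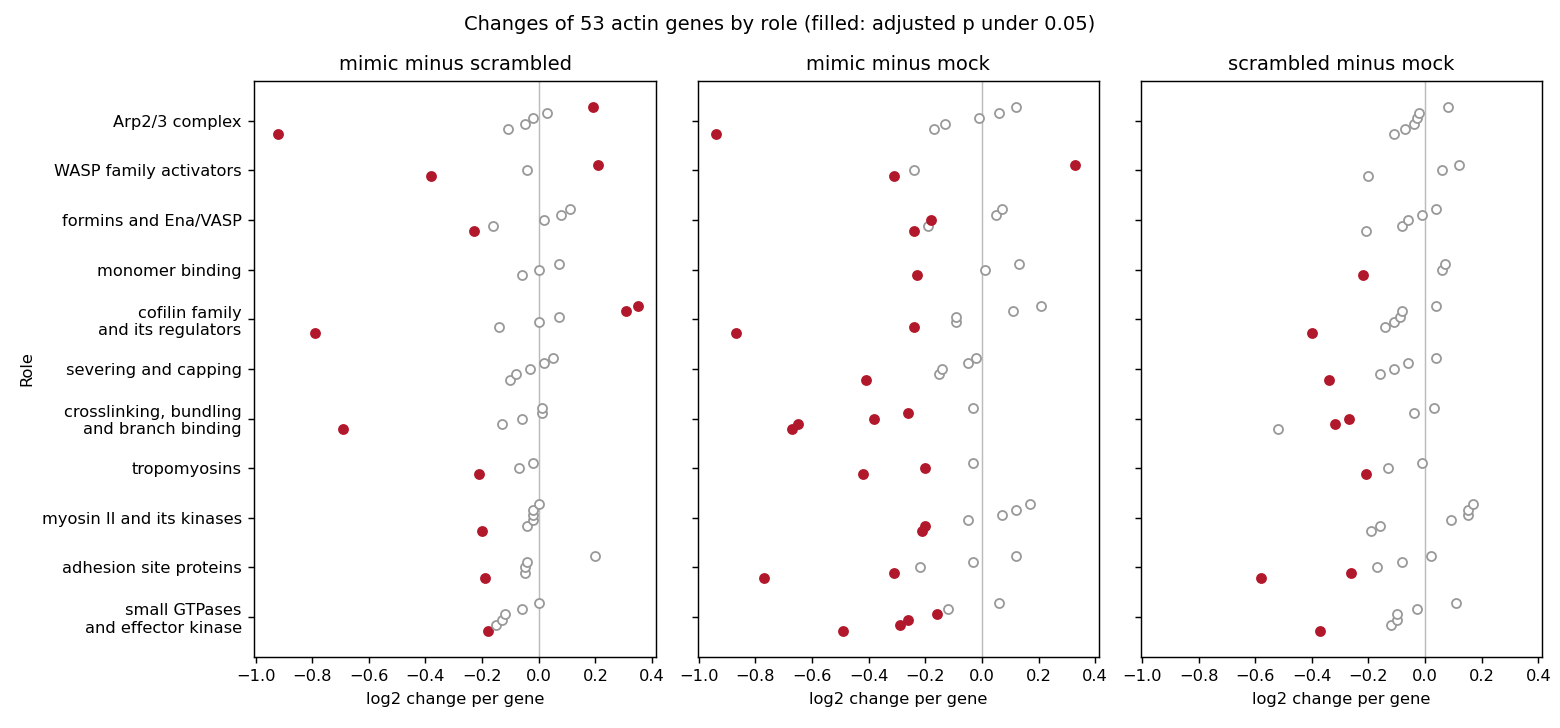
Each point is 1 of 53 genes, placed by its log2 change in each of the 3 comparisons and by role, and filled points passed an adjusted p under 0.05. The filled points below 0 number 9, 22 and 9 in the mimic against scrambled control, mimic against mock and scrambled control against mock comparisons, and those above 0 number 4, 1 and 0.

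Promoters of ACTN1, MYLK and TPM4 are shown because these genes were lower than mock with the mimic in the gene fit and each holds a CArG box. This element is bound by serum response factor, a known activator of many actin genes. Whether the box has a part in the falls was not tested. Each window runs from 250 bases before to 50 bases after the gene start, 5′ to 3′ on the gene's strand, from RefSeq on GRCh38.p14, with the CArG box in capitals.
ACTN1: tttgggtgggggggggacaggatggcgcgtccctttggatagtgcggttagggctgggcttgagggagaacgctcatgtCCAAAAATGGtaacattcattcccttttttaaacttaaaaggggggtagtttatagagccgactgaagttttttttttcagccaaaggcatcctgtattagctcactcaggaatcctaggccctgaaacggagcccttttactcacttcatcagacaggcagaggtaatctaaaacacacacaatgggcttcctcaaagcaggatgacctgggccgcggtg
MYLK: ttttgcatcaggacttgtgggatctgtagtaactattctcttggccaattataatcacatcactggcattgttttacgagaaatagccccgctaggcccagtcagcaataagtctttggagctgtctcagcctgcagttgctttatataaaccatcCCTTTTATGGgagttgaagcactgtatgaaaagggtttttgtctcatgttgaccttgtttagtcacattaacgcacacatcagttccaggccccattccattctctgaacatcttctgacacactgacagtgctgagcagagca
TPM4: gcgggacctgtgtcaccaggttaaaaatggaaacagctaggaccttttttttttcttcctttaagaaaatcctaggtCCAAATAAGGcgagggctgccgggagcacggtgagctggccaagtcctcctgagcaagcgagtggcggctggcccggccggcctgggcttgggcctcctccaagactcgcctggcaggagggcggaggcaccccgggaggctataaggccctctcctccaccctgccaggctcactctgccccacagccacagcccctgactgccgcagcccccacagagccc
The ACTN1 window is chr14:68977517-68977816 on the minus strand, that of MYLK is chr3:123620499-123620798 on the minus strand and that of TPM4 is chr19:16067288-16067587 on the plus strand. The box starts 171 bases before the start of ACTN1, 94 before that of MYLK and 173 before that of TPM4. Of the members' windows, 4 of 73, from 45 genes, held a CArG box (5.48%), the fourth being that of ROCK2. ROCK2 did not pass against mock in the gene fit. Its changes were -0.05 with the mimic and 0.15 with the scrambled control (adjusted p = 0.564 and 0.09, limma). Most members lower than mock thus had no box in these windows. Among the windows of other actin genes 8 of 130 did (6.15%), and among all windows 454 of 35116 (1.29%). The box is its own reverse complement, so both strands were covered, and a match describes the letters and not binding.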

How the data were processed

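Biotin-labelled RNA of 9 Hec50 samples was measured on one-colour Affymetrix arrays, according to the labels' protocols. The authors deposited log2 values for 54675 probe sets. From the values, each probe set was centred on its median over the 9 arrays. The base of the logarithm was taken as 2. The probe summary, the normalisation and the array background are not given in the sources used here, so signal over background is unknown.

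Level classes (below 4, 4 to 8, 8 or more) were read from the rounding step of the stored numbers, a method that placed 97.3% of 6000 simulated probe sets correctly. Gene symbols came from the platform annotation of 2016. After 62 control probe sets were left out, 41091 of 54613 had 1 symbol, 1801 several and 11721 none. In R 4.3.3, two-sided tests used limma 3.58.1 (functions lmFit and eBayes) with 1 mean per group over the 9 arrays, by probe set and by gene, a gene being the mean of its probe sets in its highest level class. On simulated data for the mimic and scrambled control comparison, with 200 of 54613 probe sets changed in each of 3 runs, the fit recovered 67.7%, 97% and 100% of log2 changes of 0.5, 1 and 2. False calls numbered 35 of 564.

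The member genes, roles and other lists were chosen with earlier results of these data known. Array values are given for the probe sets with the largest called changes per comparison (up to 14, 8 and 8, at most 2 per gene) and for their paralogs, and otherwise for ACTN1, CAPG, WASL and a second SSH1 probe set, chosen after their values were seen. Probe sets ending in x_at can match related transcripts. Alternatives were a replicate block, quantile normalisation, a robust fit, the 6 arrays compared, a level filter, a tie filter, the mean of all probe sets, a minimum fold and leaving out arrays. Replicate numbers did not pair the arrays: deviations from group means of same-numbered arrays correlated at -0.24 to 0.15. Between replicates the SD of differences was 0.131 to 0.182, and 3.21% to 4.41% of values were identical.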

Additional observations from a re-analysis of the deposited data

How the results depend on the processing

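Of 30 named changes, 23 kept their call under all alternatives other than the minimum fold, 7 lost it under some and 0 reversed. A minimum of 1.5-fold left fewer calls by construction: against the scrambled control 0 probe sets higher and 7 lower and 0 genes higher and 3 lower, against mock 0 and 14 probe sets and 0 and 5 genes, and for the scrambled control against mock 0 and 5 probe sets and 0 genes lower. The share of all features passing that minimum is not given here, so these counts have no background. With the 6 arrays compared, probe sets higher were 4 against the scrambled control and 1 for the scrambled control against mock, and genes higher against mock were 2. Leaving out tied probe sets gave 4, 1 and 2 in the same order. A level of 4 or more gave 2 genes higher against mock. The mean of all probe sets gave 2 genes higher against the scrambled control, 2 against mock and 1 for the scrambled control against mock. Without both mock replicate 3 and mimic replicate 1, chosen after seeing the data because their deviations correlated at 0.36, 3 probe sets were higher against the scrambled control. The replicate block gave 1 probe set higher for the scrambled control against mock and 2 genes higher against mock. It moved no other count of members by more than 1.5 times.

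Leaving out 1 array at a time gave, against the scrambled control, 3 to 7 probe sets higher and 13 to 19 lower and 4 to 5 genes higher and 5 to 11 lower. Against mock it gave 3 to 9 and 27 to 40 probe sets and 1 to 2 and 15 to 24 genes. For the scrambled control against mock it gave 0 to 3 and 10 to 17 probe sets and 0 and 4 to 10 genes. Over all 19775 genes it gave 1149 to 1456 higher and 1005 to 1333 lower against the scrambled control. Against mock the ranges over all genes were 1162 to 1603 and 1479 to 2088. For the scrambled control against mock they were 214 to 553 and 544 to 1107. The causes were not tested. Of the 166 probe sets, 61 held more than 1 value of exactly 0, which can narrow the spread.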

Other observations

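Other genes of the same pathway, whose list was also chosen with earlier results known, moved in both directions. Of 85 further actin genes, 75 were measured, and against the scrambled control 7 were higher with the mimic (9.33%, against 7.65% of all genes) and 10 lower (13.3%, against 7.08%), with a median change of -0.03. PPM1F, a phosphatase that acts on the PAK kinases, fell by 0.89 (adjusted p = 1.63e-06, limma). MARCKSL1, the relative of MARCKS, fell by 0.59 ± 0.06, and WIPF1, a partner of WASP proteins, by 0.56 ± 0.06. Against mock the same 3 genes fell by 0.85, 0.63 and 0.59, in a comparison that shares the mimic arrays. There 7 of the 75 were higher (9.33%, against 8.4% of all genes) and 13 lower (17.3%, against 10.3%), among them PDLIM7, a scaffold of stress fibres, which fell by 0.61.

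Between the scrambled control and mock, 4 of the 75 were higher (5.33%, against 2.8% of all genes) and 6 lower (8.0%, against 5.23%). ARPC4, another Arp2/3 subunit, was lower with the scrambled control than in mock cells by -0.65 ± 0.08, and the mimic was 0.48 ± 0.08 higher than the scrambled control. PDLIM7 was lower with the scrambled control by -0.48 ± 0.05, and NCKAP1, a WAVE complex subunit, was higher by 0.35 ± 0.06.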
